A study of Mus musculus with 24 samples.

Results

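The retinoid genes Aldh1a1, Aldh1a2, Aldh1a3, Aldh1a7, Rbp4, Crabp1, Crabp2, Cyp26b1 and Stra6 were followed through the RNA-seq of a mouse study of Pax6 in lens and forebrain. They were taken by name and are 9 of the 23947 gene symbols in the deposited expression table. The list was drawn up with the values of this table known, so the levels below describe these libraries and carry no test. The RNA-seq part of the study held 3 libraries of CD-1 mice, an outbred stock, with 1 library per group: lens fibers at postnatal day 1, lens epithelium at postnatal day 1, and whole forebrain at E12.5. Lens fibers are long, crystallin-rich cells that form the bulk of the lens, and the epithelium is the cell layer at its front from which fibers form. The study carried no mutant and no treatment, and its ChIP-seq and FAIRE lists of lens and forebrain were not used here. Both lens groups differ from the forebrain in age as well as tissue, and these cannot be told apart. Whether tissue was pooled from several animals is unstated in the sources used here.

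Retinoic acid is made from vitamin A in a chain of steps. Retinol travels in blood bound to Rbp4 and transthyretin (Ttr), Stra6 carries it across the cell membrane, Rdh10 oxidises it to retinaldehyde, and the retinaldehyde dehydrogenases of the Aldh1a family oxidise that irreversibly to retinoic acid. Crabp1 and Crabp2 bind retinoic acid in the cytoplasm, Cyp26 enzymes degrade it, and receptors of the Rar and Rxr families act on genes when bound by it. In the eye, retinoic acid takes part in the shaping of the optic cup and the front of the eye, and in the forebrain it takes part in patterning and neurogenesis. An enzyme of the Aldh1 type is also known as a taxon-specific crystallin of elephant shrews, where it is an abundant lens protein.

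The 2 members with the highest lens levels, Aldh1a1 and Aldh1a7, are neighbours on mouse chromosome 19, with 0 other protein-coding genes starting between them in RefSeq (GRCm38.p6). Aldh1a7 is a rodent paralog of Aldh1a1, and it is grouped with the retinaldehyde dehydrogenases here by family only. Whether it oxidises retinaldehyde was not examined. RefSeq lists 2 starts for Aldh1a1, and the 250 bases before the second are shown beside the 250 bases before the start of Aldh1a7, because these genes had the same order of levels over the 3 libraries. The windows are chr19:20601718-20601967 on the plus strand for Aldh1a1 and chr19:20727557-20727806 on the minus strand for Aldh1a7, in GRCm38.p6, and each is written 5′ to 3′ along its gene. Capitals mark each match to the octamer ATGCAAAT and to the CCAAT box.
Aldh1a1: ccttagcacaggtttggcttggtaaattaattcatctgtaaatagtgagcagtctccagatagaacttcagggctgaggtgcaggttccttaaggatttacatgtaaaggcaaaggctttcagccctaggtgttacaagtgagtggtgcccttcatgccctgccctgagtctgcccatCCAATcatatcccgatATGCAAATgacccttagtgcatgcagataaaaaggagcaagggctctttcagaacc
Aldh1a7: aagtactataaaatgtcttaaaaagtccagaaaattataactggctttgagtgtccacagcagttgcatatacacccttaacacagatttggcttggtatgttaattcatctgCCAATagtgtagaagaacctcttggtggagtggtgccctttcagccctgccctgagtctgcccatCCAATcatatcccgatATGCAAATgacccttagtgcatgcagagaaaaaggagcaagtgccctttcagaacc

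Over the last 100 bases before the start, 94 were identical between the genes with no gap. The octamer lay 56 bases and the nearer CCAAT box 72 bases before the start in both windows, counted to the first base of the motif. The 6 differing bases, with positions counted from 1 at the 5′ end of each 250-base window and the Aldh1a1 base first, were C154T, A155C, T156A, T222G, G236T and T239C. T222G lies 29 bases before the start, directly 5′ of a run of A bases. Bases before the first Aldh1a1 start did not share this match, with 54 of 82 aligned bases identical to Aldh1a7 in an alignment with free end gaps.

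Promoter windows were present for 7 of the 9 members, 12 windows in all, and not for Aldh1a3 and Crabp2. On either strand, the octamer was found in 3 of the 12 windows, against 1.60% of the 32851 windows of the same length. These were 1 window each of Aldh1a1, Aldh1a7 and Aldh1a2, in the last at 84 bases before the start. The octamers of Aldh1a1 and Aldh1a7, like their nearer CCAAT boxes, lie in the near-identical 100 bases and are not independent matches. The search was added after the data were seen and carries no test. The CCAAT box was found in 5 of the 12 windows, from 5 members, against 33.8% of all windows. TATAAA lay in 1 window each of Cyp26b1, Aldh1a7 and Rbp4, against 12.4% of windows, and in Rbp4 it was 28 bases before the start. The receptor hexamer AGGTCA, its direct repeats with 2 or 5 bases of any kind between the copies, and the homeodomain palindrome of TAAT and ATTA with 3 bases of any kind between them had no match in these 12 windows. Their shares over all windows were 14.0%, 0.00913%, 0.00913% and 0.463%. These are matches of letters and were not set against binding, since the peak lists are on mm9. Each direct repeat contains the hexamer.

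Expression is given as RPKM, by name a count of reads scaled to gene length and library size. Levels of different genes within a library may be compared on it. How the libraries were scaled to each other is unstated in the sources used here. With 1 library per group there is no spread between replicates, so no difference below was checked against biological or technical error, and which neighbouring levels differ beyond it cannot be said. In bulk tissue, fewer cells of a type and less RNA per cell cannot be told apart. The summed RPKM was 2603160 in fibers, 587475 in epithelium and 598020 in forebrain, and 16 crystallins took 69.2%, 3.70% and 0.0180% of it. Without those crystallins the sum was 802835 in fibers, 565764 in epithelium and 597913 in forebrain. Whether fiber levels are shares of the reads mapped was not tested. Among 994 chemoreceptor genes of about 1 kb, which few of these cells use, the lowest values above 0 formed a step. Multiplied by gene length in kb, that step had a median of 0.141 in fibers, 0.0501 in epithelium and 0.0822 in forebrain, so a 1 kb transcript with a single read would be listed near these values. For a transcript of about 1 kb, a value well under 1 RPKM thus rests on few reads, above all in fibers. A longer transcript has more reads at the same RPKM. Pax6, the factor the study is about, was listed at 24.0 RPKM in fibers, 141.6 in epithelium and 28.1 in forebrain.

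Differences are given as log2((RPKM + 1)/(RPKM + 1)), and the added 1 pulls the ratios of weakly expressed genes towards 0. Genes that reached 1 RPKM in one or both libraries of a pair were considered, and a log2 ratio of at least 1 or at most -1, a 2-fold difference on this scale, was counted. Of the 9 members, 5 met this minimum for fibers over forebrain and 6 for each of the other comparisons. Aldh1a2, Rbp4 and Cyp26b1 stayed under 1 RPKM in every library. Because the members were chosen on these columns, the shares over all genes that follow are given for scale only.

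**Figure D1:**
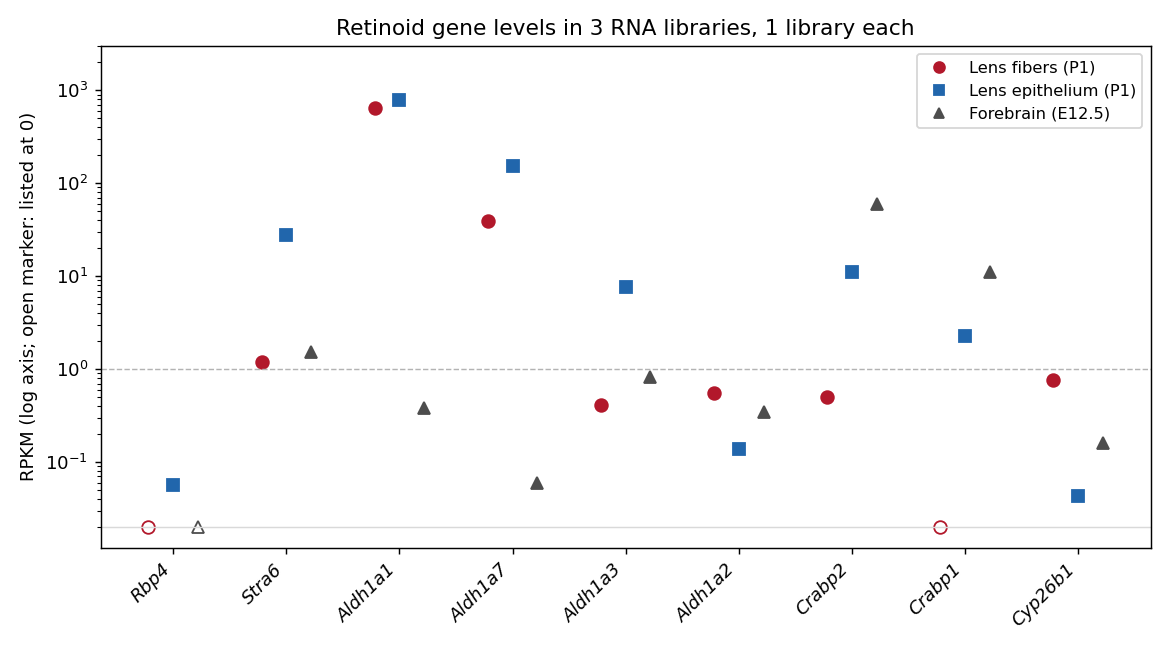
RPKM of the 9 retinoid genes on a log axis in lens fibers (circles), lens epithelium (squares) and forebrain (triangles), 1 library each; open markers are genes listed at 0 and the dashed line is 1 RPKM. Aldh1a1 and Aldh1a7 stand above 39 RPKM in both lens libraries and under 0.4 RPKM in forebrain, while Crabp1 and Crabp2 are highest in forebrain.

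Lens fibers differed from forebrain by at least 2-fold in 4 members. Aldh1a1 and Aldh1a7 were higher, with log2 ratios of 8.87 and 5.25, and Crabp2 and Crabp1 were lower, with -5.35 and -3.58. Stra6, at -0.21, did not pass. Over the 12205 genes considered, 15.9% were higher in fibers by this measure and 31.6% were lower. With the libraries scaled to equal summed RPKM without crystallins these shares were 11.3% and 40.0%, and the 4 members stayed past 2-fold.

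Lens epithelium differed from forebrain by at least 2-fold in 6 members. Aldh1a1 (9.15), Aldh1a7 (7.20), Stra6 (3.50) and Aldh1a3 (2.26) were higher, and Crabp2 (-2.33) and Crabp1 (-1.87) were lower, all as log2 ratios. Over 12619 genes, 13.7% were higher in epithelium by this measure and 11.9% were lower. Scaling by protein-coding genes without crystallins, added after the data were seen, gave 17.4% and 8.83%, and the 6 members stayed past 2-fold. Epithelium and fibers were set against the same forebrain library, so these comparisons share 1 library.

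Lens fibers were at least 2-fold lower than lens epithelium in 5 members, Stra6 (-3.71), Crabp2 (-3.02), Aldh1a3 (-2.62), Aldh1a7 (-1.94) and Crabp1 (-1.72), and higher in 0. Aldh1a1 had a log2 ratio of -0.29. Over 12090 genes, 11.4% were higher in fibers by this measure and 28.3% were lower (6.67% and 40.7% after scaling to equal summed RPKM without crystallins), and the median log2 ratio was -0.42. The value of Aldh1a1 was thus close to that of the median gene of these libraries.

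**Figure D2:**
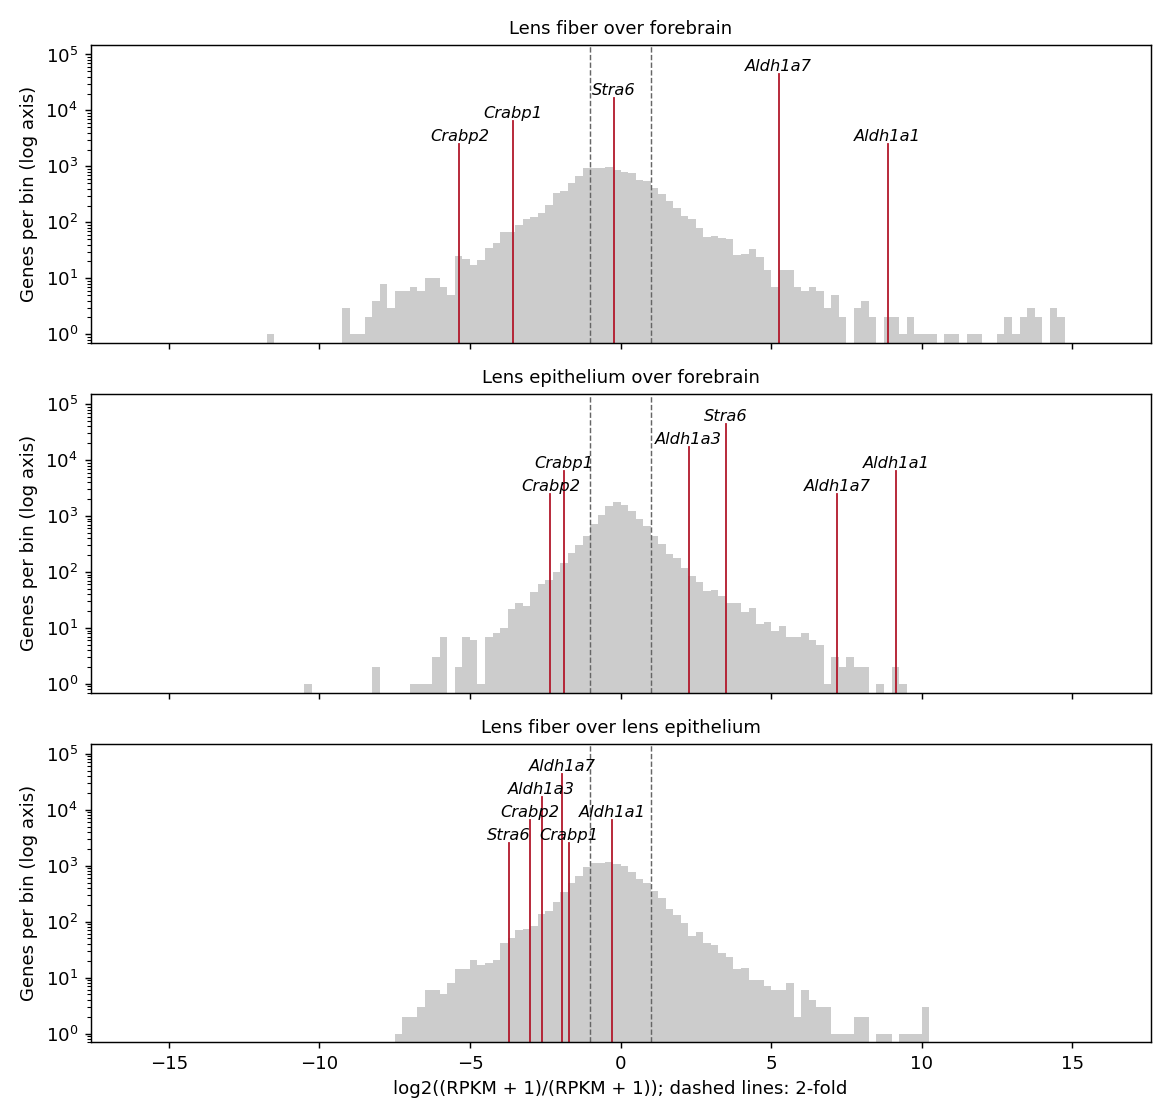
Histograms of the log2 ratio over all genes considered in each comparison (gray, counts on a log axis), with the retinoid genes that met the minimum marked by lines; dashed lines are 2-fold. Aldh1a1 lies at 8.87 and 9.15 for fibers and epithelium over forebrain, and at -0.29 for fibers over epithelium.

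The uptake genes differed from each other. Rbp4, the blood carrier of retinol made mainly by the liver, was listed at 0 RPKM in fibers, 0.0564 in epithelium and 0 in forebrain. The epithelium value is near the level of a single read on 1 kb. Stra6, the membrane receptor that takes retinol from Rbp4, was listed at 1.19 RPKM in fibers, 27.7 in epithelium and 1.54 in forebrain. Epithelium stood alone as the high library, 18.0 times the forebrain level, and the fiber level was 4.31% of that in epithelium.

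The Aldh1a enzymes made up most of the members' RNA in lens and little of it in forebrain. Aldh1a1, which oxidises retinaldehyde and other aldehydes, was listed at 642.6 RPKM in fibers, 784.4 in epithelium and 0.378 in forebrain. It ranked 94 in fibers, 44 in epithelium and 13097 in forebrain among the 23947 symbols. Both lens libraries were high, and fibers held 81.9% of the epithelium level.

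Aldh1a7 was listed at 39.4 RPKM in fibers, 154.3 in epithelium and 0.0595 in forebrain, again high in both lens libraries. Fibers held 25.6% of the epithelium level, a larger gap than for Aldh1a1. The ratio of Aldh1a7 to Aldh1a1 was 0.0613 in fibers and 0.197 in epithelium. How reads shared by these paralogs were divided is unstated in the sources used here, and the split between them is uncertain. In the same table a pair of near-identical globin genes, Hba-a1 and Hba-a2, was listed at 165.98 and 0.00542 RPKM in epithelium.

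Aldh1a3, known from the ventral retina and the surface of the early eye, was listed at 0.415 RPKM in fibers, 7.72 in epithelium and 0.823 in forebrain. Only in epithelium did it exceed 1 RPKM. Aldh1a2, known for making retinoic acid in the early embryo and in the meninges, was listed at 0.558 RPKM in fibers, 0.139 in epithelium and 0.346 in forebrain. No library had as much as 1 RPKM of it.

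The 4 Aldh1a genes summed to 683.0 RPKM in fibers, 946.5 in epithelium and 1.61 in forebrain. Aldh1a1 was 94.1% of that sum in fibers, 82.9% in epithelium and 23.5% in forebrain. Aldh1a7 was 5.77%, 16.3% and 3.70% in the same libraries. In forebrain the largest share, 51.2%, was that of Aldh1a3, at under 1 RPKM. These are shares of RNA, and the part of each enzyme in making retinoic acid was not examined.

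Against the wider family of aldehyde dehydrogenases, which handle many other aldehydes, this level was high. The 16 other Aldh genes examined summed to 149.6 RPKM in fibers, 92.4 in epithelium and 72.6 in forebrain. The 4 Aldh1a genes were therefore 82.0% of the family total in fibers, 91.1% in epithelium and 2.17% in forebrain. The other genes varied in which library was highest. Of the 12 with at least 1 RPKM, 2 were at least 2-fold higher (Aldh6a1, 1.31, and Aldh9a1, 1.30) and 2 lower (Aldh1b1, -1.54, and Aldh1l2, -1.36) in epithelium over forebrain. In fibers over epithelium, of 11, Aldh1b1 (2.76), Aldh7a1 (2.32) and Aldh18a1 (1.51) were higher and Aldh5a1 (-1.14) was lower. Aldh1l2 and Aldh5a1 did not reach 5 RPKM and are named only to complete these counts, after their values were seen. The shares over all genes, higher and lower, were 13.7% and 11.9% for epithelium over forebrain. For fibers over epithelium they were 11.4% and 28.3%. Aldh7a1, a lysine catabolism enzyme, reached 62.6 RPKM in fibers, against 11.7 in epithelium and 5.75 in forebrain. The cornea enzyme Aldh3a1 was listed at 0 in fibers, 0.235 in epithelium and 0 in forebrain.

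**Figure D3:**
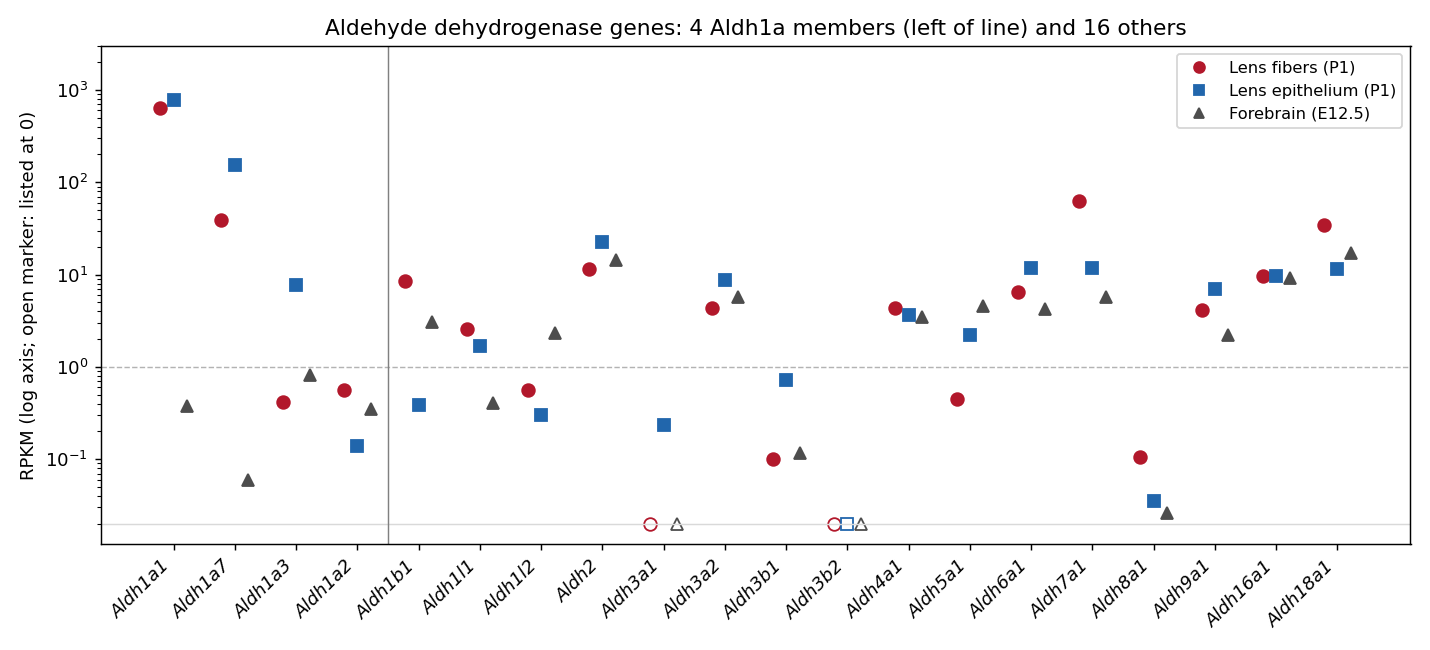
RPKM of 20 aldehyde dehydrogenase genes on a log axis in lens fibers (circles), lens epithelium (squares) and forebrain (triangles), 1 library each; open markers are genes listed at 0. Aldh1a1 in both lens libraries exceeds every other gene shown, and the highest of the 16 others is Aldh7a1 in fibers at 62.6 RPKM.

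The binding proteins were highest in forebrain, and within the lens they were higher in epithelium than in fibers. Crabp2, which hands retinoic acid to its nuclear receptor, was listed at 0.498 RPKM in fibers, 11.1 in epithelium and 60.0 in forebrain. Crabp1, its cytoplasmic relative, was listed at 0 in fibers, 2.28 in epithelium and 10.99 in forebrain. Together they came to 0.498 RPKM in fibers, 13.4 in epithelium and 71.0 in forebrain.

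Fabp5, a fatty acid binding protein that can also carry retinoic acid, had another order. It was listed at 2760 RPKM in fibers, 37.1 in epithelium and 103.8 in forebrain, log2 ratios of 4.72 for fibers over forebrain, -1.46 for epithelium over forebrain and 6.18 for fibers over epithelium. Fabp5 has near-identical processed copies in the mouse genome, and how reads shared with them were counted is unstated in the sources used here.

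Cyp26b1, an enzyme that degrades retinoic acid, was listed at 0.759 RPKM in fibers, 0.0427 in epithelium and 0.161 in forebrain. It stayed under 1 RPKM throughout, and fibers were the highest library. Of its relatives, Cyp26a1 was listed at 0 in fibers, 4.12 in epithelium and 0.0430 in forebrain. Cyp26c1 was listed at 0 in fibers, 0.297 in epithelium and 0.151 in forebrain. The 3 Cyp26 genes thus summed to 0.759 RPKM in fibers, 4.46 in epithelium and 0.355 in forebrain.

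The rest of the pathway was read from lists of 61 genes for transport, interconversion of retinol and retinaldehyde, clearance, receptors and known responsive genes. For fibers over forebrain, 39 of the 61 had at least 1 RPKM in either library. Of these, 9 (23.1%) were at least 2-fold higher and 11 (28.2%) lower, against 15.9% and 31.6% over all genes. The median log2 ratio was 0.09 against -0.41 over all genes. For epithelium over forebrain, 10 of 40 were higher and 5 lower, against 13.7% and 11.9% over all genes. These 40 had a median of 0.23, against -0.03 over all genes. The 5 lower genes were Ttr, Fabp5, Nr2f1, Nr2f2 and Meis2. For fibers over epithelium, 5 of 40 were higher (Rbp3, Bco1, Akr1b8, Rxrg and Fabp5) and 13 lower, against 11.4% and 28.3% over all genes. These 40 had a median of -0.63, against -0.42 over all genes. Scaling the libraries to equal summed RPKM without crystallins turned this pathway split into 3 higher and 17 lower of 39. Over all genes the shares were then 6.67% and 40.7%. Scaling to a median ratio of 0 gave 8 and 11 of 40, against 14.8% and 23.5% over all genes. Nr2f2, Rbp3 and Bco1, all under 5 RPKM, are named to complete the counts, after their values were seen.

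Among the genes of retinol supply, Rdh10, which makes retinaldehyde, was listed at 1.03 RPKM in fibers, 21.1 in epithelium and 3.80 in forebrain. It had the order of Stra6 in being highest in epithelium and lowest in fibers. Dhrs3, which turns retinaldehyde back into retinol, was listed at 4.60 RPKM in fibers, 9.49 in epithelium and 0.730 in forebrain. Both lens libraries were above forebrain.

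Ttr, the partner of Rbp4 in blood and a product of the choroid plexus, was listed at 0 in fibers, 0.687 in epithelium and 92.7 in forebrain. Its carrier partner Rbp4 was at 0 in the same forebrain library.

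The retinoic acid receptors were low to moderate in every library. Rarb, itself a classical target of retinoic acid, was listed at 4.84 RPKM in fibers, 10.5 in epithelium and 2.57 in forebrain, and Rara at 1.52, 4.14 and 1.34. Rarg was listed at 1.01 in fibers, 2.76 in epithelium and 1.25 in forebrain. Each of the 3 was highest in epithelium, and for epithelium over forebrain the log2 ratios of Rarb (1.69) and Rara (1.14) passed 2-fold while that of Rarg (0.74) did not. Rarb was 65.7% of the summed Rar level in fibers, 60.4% in epithelium and 49.8% in forebrain.

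The Rxr partners varied less, except Rxrg. Rxrb was listed at 10.9 RPKM in fibers, 13.2 in epithelium and 14.7 in forebrain, and Rxra at 8.87, 5.63 and 4.34. Rxrg was listed at 3.58 RPKM in fibers, 0.874 in epithelium and 0.425 in forebrain.

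Genes known to respond to retinoic acid did not all lie on the same side. In epithelium over forebrain, of 12 with at least 1 RPKM, 5 were at least 2-fold higher (Dhrs3, 2.60, Cyp26a1, 2.29, Rarb, 1.69, Rarres2, 1.50, and Meis1, 1.33) and 3 lower (Nr2f1, -2.68, Meis2, -2.06, and Nr2f2, -1.39). Over all genes, 13.7% were higher and 11.9% lower in this comparison. Rarres2, under 5 RPKM, is also named after its value was seen. Meis1, a homeobox gene, was listed at 2.76 RPKM in fibers, 25.5 in epithelium and 9.54 in forebrain. Its relative Meis2 was listed at 5.50 RPKM in fibers, 5.24 in epithelium and 25.1 in forebrain, so these homeobox genes differed in which tissue was highest. In fibers over epithelium, 0 of 10 were higher and 5 lower, among them Meis1, Cyp26a1, Rarres2 and Nr2f1. Over all genes, 11.4% were higher and 28.3% lower.

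**Figure D4:**
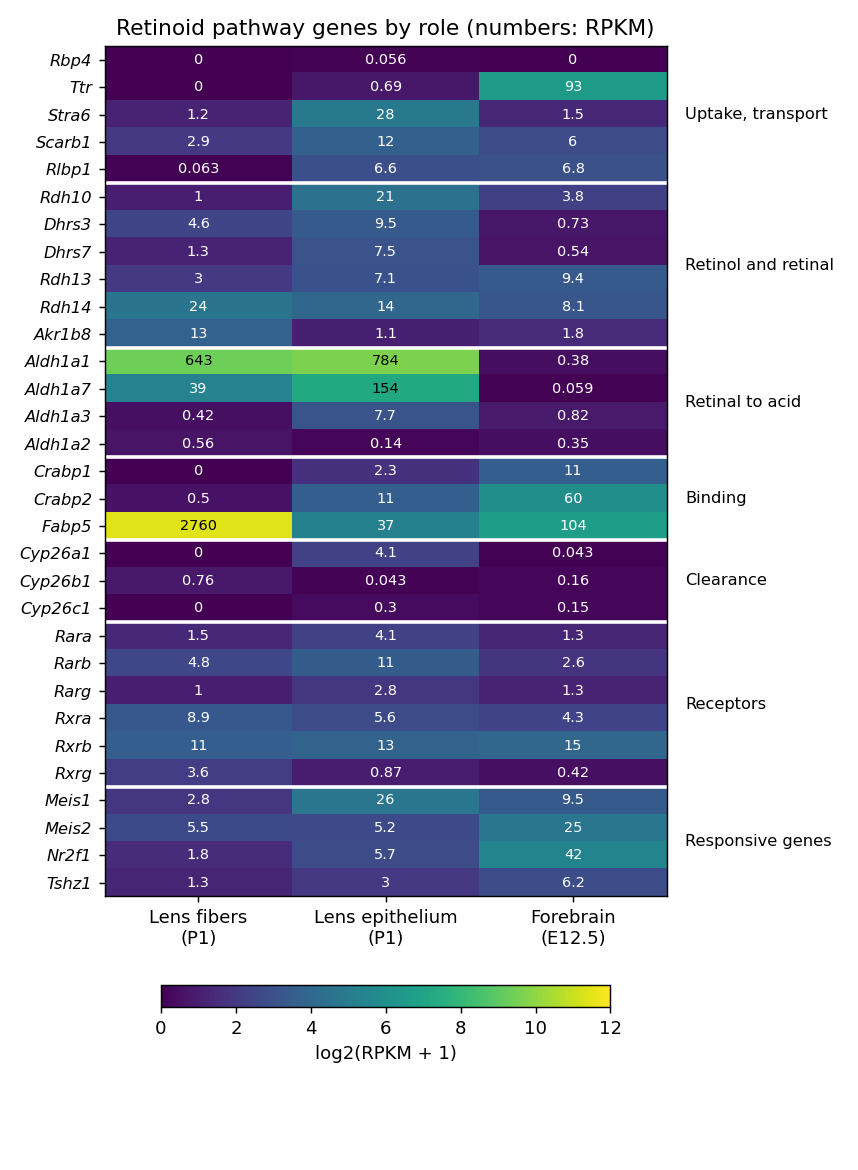
Levels of 31 retinoid genes by role, as log2(RPKM + 1) in color with the RPKM printed, in lens fibers, lens epithelium and forebrain, 1 library each. Aldh1a7 is placed by its family, and its role was not examined. Aldh1a1 and Aldh1a7 are high in both lens columns, Stra6, Rdh10 and Cyp26a1 in the epithelium column, Fabp5 in the fiber column, and Ttr, Crabp2 and Crabp1 in the forebrain column.

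The labels of the libraries were set against marker genes. Of 8 forebrain markers, 8 reached 1 RPKM in forebrain, with Emx1 at 76.0, against 1 in fibers and 2 in epithelium. The 8 fiber markers summed to 59544.9 RPKM in fibers, 1537.6 in epithelium and 6.35 in forebrain. The 8 genes taken as epithelium markers summed to 955.9 RPKM in fibers, 1034.0 in epithelium and 77.2 in forebrain. They did not all separate the lens libraries, and Clu (450.5 RPKM) and Cdkn1c (411.6 RPKM) gave most of the fiber sum. The fiber level, as a share of the epithelium level, was 0.446% for Gja1, 1.51% for Cdh1, 2.23% for Foxe3, 4.06% for Pdpn and 6.32% for Slc38a3. It was 42.5% for Trpm3, 139.5% for Cdkn1c and 189.6% for Clu, so Cdkn1c and Clu were higher in fibers and did not mark epithelium here. On the same measure Aldh1a1 had 81.9%, Aldh1a7 25.6%, Aldh1a3 5.38%, Crabp2 4.47% and Stra6 4.31%. In the other direction, epithelium levels of the 8 fiber markers ran from 0.193% to 62.2% of their fiber levels. How much RNA of one lens tissue was carried into the other was not tested.

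Markers of other eye cells were also present in epithelium, beside the members that were highest there within the lens. Of 8 markers of ciliary epithelium and retina, 7 reached 1 RPKM in epithelium, 3 in fibers and 2 in forebrain. Their sum was 4.28 RPKM in fibers, 113.2 in epithelium and 7.87 in forebrain. Not all were highest in epithelium. Opn3 was at 1.82 RPKM in fibers, 1.91 in epithelium and 2.85 in forebrain, and Rcvrn at 1.02, 0.404 and 0. The ciliary gene Wfdc1 was at 0 in fibers, 70.1 in epithelium and 0.0712 in forebrain, and the optic cup gene Rax was at 0 in fibers, 15.8 in epithelium and 0.188 in forebrain. Of 8 pigment cell markers, 5 reached 1 RPKM in epithelium, with Dct at 24.1 and Tyrp1 at 21.2, while Rpe65 was at 0. Their sums were 0.445 RPKM in fibers, 66.2 in epithelium and 104.3 in forebrain, where Ttr gave 92.7.

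Endothelial markers summed to 1.75 RPKM in fibers, 108.1 in epithelium and 47.5 in forebrain, with 8 of 8 at 1 RPKM or more in epithelium. Myeloid markers summed to 0.821, 18.0 and 12.9 RPKM, and blood markers to 6.26, 343.6 and 1719.5 RPKM, in fibers, epithelium and forebrain. Cornea and surface epithelium markers stayed under 1 RPKM in sum, with Krt12 at 0 in all 3 libraries. Mesenchyme and meninges markers summed to 1.68 RPKM in fibers, 11.3 in epithelium and 83.2 in forebrain, where Aldh1a2 was at 0.346. The part of these cells in the levels of Stra6, Aldh1a3, Crabp1, Crabp2, Rdh10 and the other genes above was not tested.

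**Figure D5:**
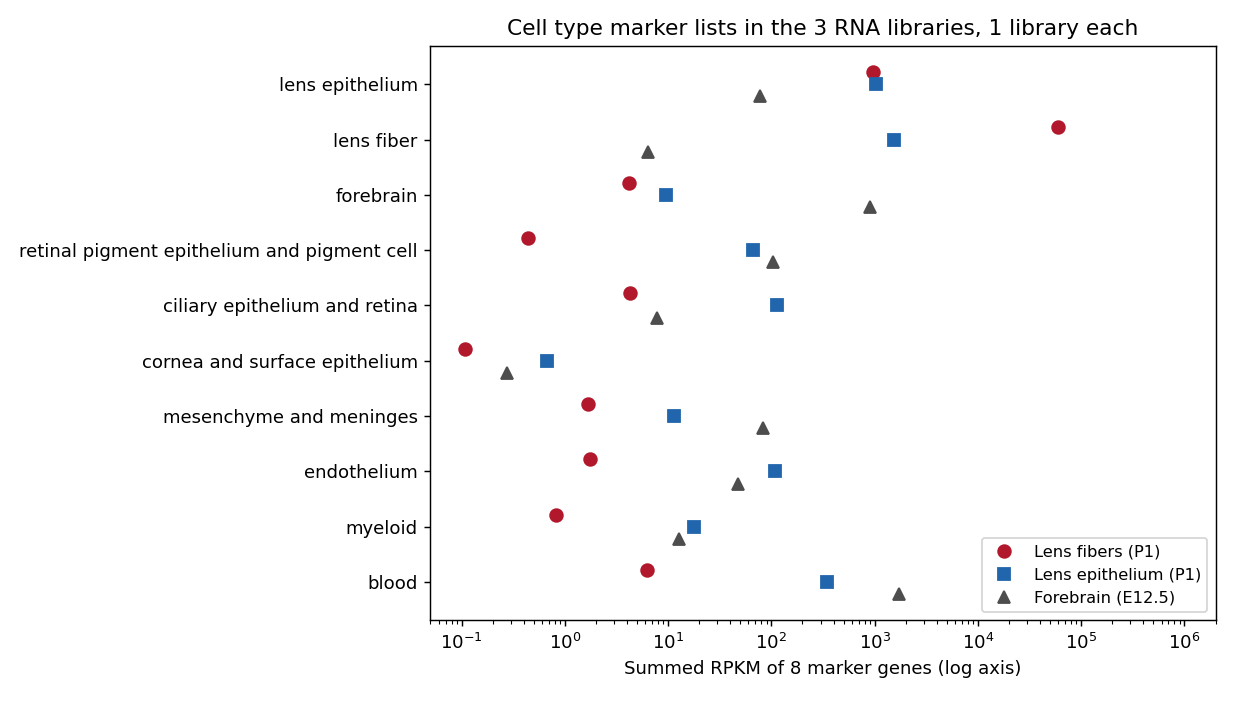
Summed RPKM of 10 lists of 8 marker genes on a log axis in lens fibers (circles), lens epithelium (squares) and forebrain (triangles), 1 library each. The ciliary and retina list reaches 113.2 RPKM in epithelium and the endothelium list 108.1 RPKM, while both stay under 5 RPKM in fibers.

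The genes nearest in pattern to each member were sought over the 3 libraries among 6288 genes reaching 10 RPKM in a library, by the distance between log2(RPKM + 1) values centred on each gene's mean. Over so few libraries many genes have similar patterns, and likeness is a description only. For Aldh1a1 they included Snora30 (distance 1.22) and Mgarp (1.34). For Aldh1a7 they were Hspb2 (0.78), Gm5424 (0.79) and Cp, the gene of the copper protein ceruloplasmin (0.81). For Stra6 they were Lrtm2 (0.08), Antxr1 (0.09) and Snora47 (0.15). For Crabp2 they were the mitotic regulator Cdc20 (0.13), Fxyd6 (0.15) and Stmn1, a microtubule regulator of neural cells (0.16). For Crabp1 they were Rps6ka6 (0.01), Alas2, a heme synthesis enzyme of red blood cells (0.05), and Boc (0.12).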

How the data were processed

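The authors deposited RNA values as RPKM, with 1 column per library. The submitters' processing notes name TopHat2 (version 2), Cufflinks (version 2), Cuffdiff and mm9 without their roles. Per the labels' protocols, total RNA went into strand-specific libraries by dUTP marking. The annotation, the handling of reads with several matches and how libraries were scaled are unstated in the sources used here, as are read totals. The ChIP-seq and FAIRE lists hold mm9 intervals without gene names and were not used, because the gene tables at hand are on GRCm38.p6.

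Levels were compared with Python 3.11.15 (pandas 2.3.3) as log2 ratios with a pseudocount of 1, for genes of at least 1 RPKM in either library, at a 2-fold threshold. The arithmetic was tested on simulated data with planted ratios. With 1 library per group, no test was run. The members, gene lists and tests were chosen with earlier results of these data known. Named were all members, listed pathway genes of at least 5 RPKM and 2-fold apart, 11 further receptor and metabolism genes, and the 3 nearest patterns per member, a few of which are not reported here. Of the listed genes, Rbpr2 was not analysed here, and Bco1 was matched through its older symbol. Of 23947 symbols, 23812 matched RefSeq, which gave names, gene types and promoter sequences. The chemoreceptor step, motif search and promoter alignment were added after the data were seen. Alternatives changed the pseudocount, the minimum, the fold and the scaling.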

Additional observations from a re-analysis of the deposited data

How the results depend on the processing

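The depth of the libraries is known only through the chemoreceptor step, and with 1 library per group no replicate could be left out. No paired analysis was possible because each RNA group held 1 library. The 2-fold counts of members kept their size within 1.5 times under every planned change of pseudocount, minimum and scaling. At 4-fold, 3 members in place of 5 were lower in fibers than in epithelium. With a pseudocount of 5, the counts of other pathway genes were 8 in place of 20 for fibers over forebrain, 9 in place of 15 for epithelium over forebrain and 7 in place of 18 for fibers over epithelium, because a larger pseudocount shrinks ratios of low genes. It also put Crabp1 within 2-fold for fibers over epithelium (-0.54 in place of -1.72). With a pseudocount of 0.1, Cyp26b1 (1.72 over forebrain, 2.59 over epithelium) and Aldh1a2 (1.46 over epithelium) passed 2-fold in fibers at levels under 1 RPKM. Under the pseudocounts of 0.1 and 5, 30 of 54 member ratios, before taking log2, changed by 1.5-fold or more, and 0 changed sign past 2-fold. The largest of these shifts on the log2 scale was 3.21, that of Crabp1 for fibers over forebrain (-6.79 in place of -3.58, with 0.1). Aldh1a1 in that comparison was 10.39 with 0.1 and 6.91 with 5, in place of 8.87. Shifts were smaller for the 81 member ratios under 3 scalings, 1 of them added after the data were seen. The largest was 0.504, that of Aldh1a1 for fibers over epithelium (-0.79 in place of -0.29, with equal summed RPKM without crystallins). Under scaling, too, 0 changed sign past 2-fold. Scaling to equal summed RPKM without crystallins set the median ratio of genes present in both libraries at -0.74 for fibers over epithelium and -0.65 for fibers over forebrain. The 4 Aldh1a genes then summed to 481.3 RPKM in fibers, against 946.5 in epithelium.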
